A study of Mus musculus with 6 samples.

Results

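The enzymes and transporters that give a neuron its GABA or glutamate identity were measured on every probe that carries the name of 1 of 7 genes, namely Gad1, Gad2, Slc32a1, Slc6a11, Slc17a6, Slc17a7 and Slc17a8. They hold 12 of the 56605 probes of the array, 4 for Gad1, 3 for Gad2 and 1 for each of the other genes, and each probe has 1 spot. The probes were chosen by gene name alone and every one is reported. The RNA came from tissue labelled hypothalamus of male C57BL/6J DIO mice, in which diet-induced obesity was brought about with a feed of 60 kcal% fat, given for 16 weeks from an age of 6 weeks. The 3 arrays labelled GSK-J4 held RNA of mice given 30 mg kg−1 of GSK-J4, an inhibitor of the histone demethylases Kdm6a and Kdm6b, and the 3 arrays labelled vehicle held RNA of mice given none. The description deposited with the arrays states that each experiment used a different mouse, and the tissue was taken at ZT 6 h, which is counted from lights on. The same description gives day 4 after exposure, while the study describes a course of 21 d. Every mouse of both groups was on the high-fat diet, so no lean mouse enters the comparison.

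GABA is the main inhibitory transmitter of the brain and is made from glutamate by glutamate decarboxylase, of which Gad1 encodes the larger enzyme (GAD67) and Gad2 the smaller, mostly synaptic enzyme (GAD65). Slc32a1 (VGAT) loads GABA and glycine into synaptic vesicles, and Slc6a11 (GAT3) takes GABA up from outside the cell, mostly into astrocytes. Glutamate is loaded into vesicles by Slc17a6 (VGLUT2), Slc17a7 (VGLUT1) or Slc17a8 (VGLUT3). Slc17a6 is known as the main form of the hypothalamus and thalamus, Slc17a7 of the cortex and hippocampus, and Slc17a8 of scattered neurons that also use another transmitter. Most hypothalamic neurons use GABA or glutamate beside their peptides, so these genes separate its major classes of neuron.

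The labelled tissue was checked first, since these classes differ between brain regions. Of 16 hypothalamus markers, 7 were detected on all 6 arrays, where detected means that the scanner flagged the probe well above background, and the hypothalamic transcription factors Nkx2-1, Sim1 and Otp were detected on 0 of 6. Among the detected were the peptides Npy, at 11.46 to 12.04 on the log2 scale, Crh and Pomc. Other peptides of the list were dim. Agrp read 4.43 to 5.20 and was detected on 5 of 6 arrays, and Avp, Pmch and Trh were each detected on 3 of 6. Of the 9 hypothalamus markers tested, 3 were higher on the arrays labelled GSK-J4 with limma adjusted p no higher than 0.05 (Pomc by 0.85, Npy by 0.42 and Rax by 1.09 in log2) and 0 were lower, beside 8.60% and 7.56% of 22117 genes, and their median difference was 0.42. Rax was dim, at 3.86 to 5.55, and detected on at most 5 of 6 arrays. The Pomc and Npy probes hold 55% and 50% G and C, and of all kept probes with 45% or more, 14.3% were called higher and 4.01% lower. These marker calls were not examined under other scalings. Of 12 cortex and hippocampus markers, 11 were detected on all 6 arrays, among them the cortical factors Tbr1, at 12.02 to 12.56 on the log2 scale, and Neurod2, at 13.52 to 13.85. Of 10 thalamus markers 9, and of 10 striatum markers 10, were likewise detected on all 6 arrays. Nkx2-1, Sim1 and Otp, 3 defining factors of the labelled tissue, were therefore absent at this sensitivity. Markers of cortex and hippocampus, thalamus and striatum were present in both groups. The summed signal of the hypothalamus markers was 5140 to 5760 on the arrays labelled GSK-J4 and 3790 to 4040 on those labelled vehicle, and that of the cortex and hippocampus markers was 52500 to 56300 against 55600 to 60700. Each sum adds unlogged signals of the tested genes, so the brightest gene weighs most. For hypothalamus this was Npy, with means of 11.94 and 11.52 in log2, so that sum mainly restates the difference of Npy. Whether the composition of the tissue has a part in the differences below was not tested, and in bulk RNA fewer cells of a type and less RNA per cell cannot be told apart.

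**Figure D1:**
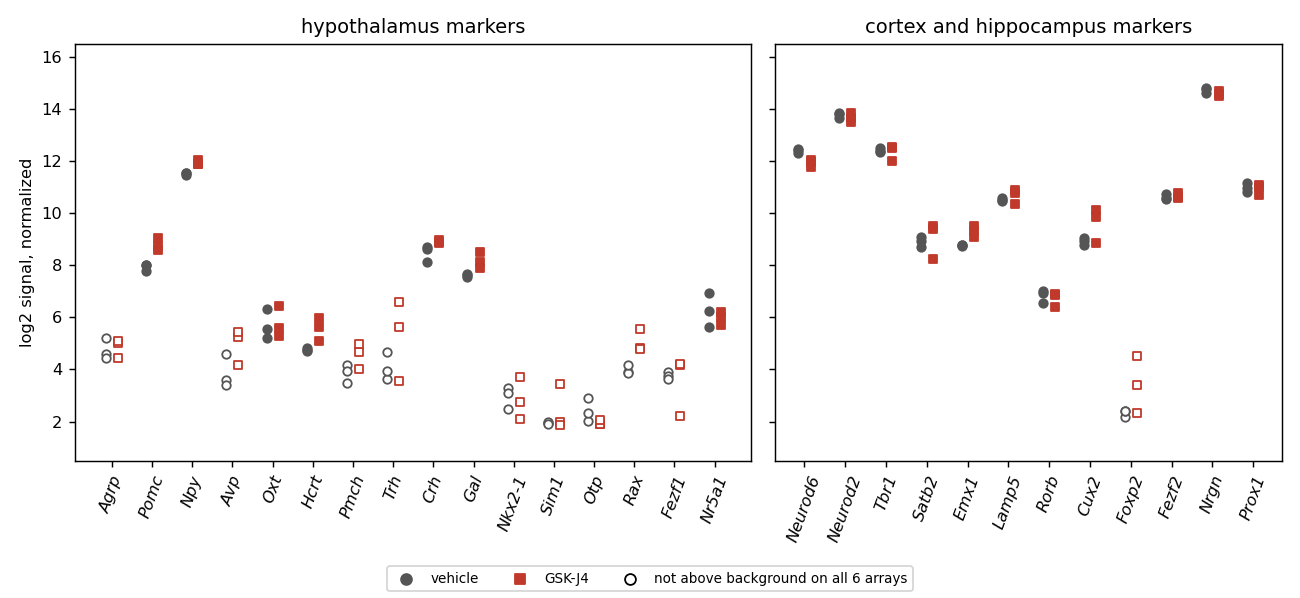
Normalized log2 signal (vertical axis) of the markers of hypothalamus (left) and of cortex and hippocampus (right) on each array, with grey circles for vehicle, red squares for GSK-J4 and open symbols where no probe of the gene was detected on all 6 arrays. Nkx2-1, Sim1 and Otp lie at the bottom of the scale on every array, while Tbr1 and Neurod2 lie above 12.

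Each group lies on 1 slide of its own, so slide and treatment cannot be told apart and every direction follows the labels of the arrays. Before normalization the arrays labelled GSK-J4 were dimmer, with a 75th percentile of signal of 406 to 461 against 787 to 916. The values below are the log2 signals that the authors deposited after quantile normalization, which gives every array the same distribution. The array labelled vehicle, replicate 1, stood apart in choroid plexus RNA, with Ttr at 16.15 against 10.66 and 10.85 on the other arrays of its group. Ttr also varied among the arrays labelled GSK-J4, at 13.24, 10.42 and 12.03 on replicates 1, 2 and 3. A difference is the mean of the arrays labelled GSK-J4 minus the mean of those labelled vehicle, and a probe was called when its limma adjusted p over all kept probes was at most 0.05. With 3 arrays against 3, the exact permutation test cannot give a p below 0.1.

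Of the 12 probes, 10 were detected on every array of 1 group or both and were tested, and 2 were not. Called probes numbered 1 higher, of Gad1, and 1 lower, of Gad2, beside 8.39% of all 34443 kept probes called higher and 8.42% called lower, which is 16.8% in either direction. With the thresholds of the study's methods, a 1.5-fold change or more and an unadjusted p no higher than 0.05, 2 probes were higher and 1 was lower, beside 4.79% and 7.86% of all kept probes. The groups did not overlap for 2 probes that were higher and 3 that were lower, beside 24.5% and 21.2% of all kept probes, or 45.6% in either direction. The brightest probe was called for 0 of the 7 genes by limma. Of these 7, 2 had an unadjusted p of at most 0.05, beside 8097 of 22117 genes in a fit with 1 probe per gene. With 10 probes tested, 1 call in each direction was near the share of the whole array. Differences were positive for 5 of the tested probes and negative for 5.

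The sequences that carry the comparison are those of the probes, since probes of 1 gene name gave different values. The first 30 of the 60 bases of the Gad1 and Gad2 probes that were tested, and of the Slc6a11 probe, read as follows, 5′ to 3′, as the scanner files give them.
Gad1 A_52_P144310, the probe of the mRNA record NM_008077: gagtgcccttaacataatgatttgaacata
Gad1 A_55_P2879270, the probe called higher: gtaggaattatattttcccttgccctcacc
Gad1 A_55_P2731481: gatcttgcttccatgactgtcctaccagac
Gad2 A_51_P495462, the probe of the mRNA record NM_008078: agtaacaggacaaagaagcaaaaacatcaa
Gad2 A_55_P2734537, the probe called lower: tccacaagtgttttgtaggatcttctttaa
Slc6a11 A_51_P271311, the probe of the mRNA record NM_172890: acagatccctgatgtctgtcactatagaca
On mm9, the build of the files, the Gad1 probes lie on the plus strand at chr2:70439699-70439758, chr2:70399873-70399932 and chr2:70423102-70423161 in that order. The Gad2 probes lie at chr2:22549095-22549154 and chr2:22538104-22538163, and the Slc6a11 probe at chr6:114199514-114199573, all on the plus strand. Whether each probe falls in an exon, an intron or a UTR was not analysed here, because no annotation of that build was used.

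For Gad1, the probe of the curated mRNA read 13.32, 13.28 and 13.23 on the arrays labelled GSK-J4 and 13.45, 13.61 and 13.51 on those labelled vehicle. Every GSK-J4 value lay below every vehicle value, with means of 13.28 ± 0.04 and 13.52 ± 0.08 (SD, n = 3). The difference was −0.25 (SE 0.08, 95% interval −0.44 to −0.06), which missed the threshold with a limma adjusted p of 0.072. With scaling to the 75th percentile in place of quantile normalization the same difference was 0.02, and with a correction for the GC content of the probes it was −0.06.

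The Gad1 probe of the predicted transcript record XM_006498768 was higher on the arrays labelled GSK-J4. It read 6.90, 6.66 and 6.82 on the arrays labelled GSK-J4 and 5.97, 5.80 and 5.89 on those labelled vehicle, and the groups did not overlap. The means were 6.79 ± 0.13 and 5.89 ± 0.09 (SD, n = 3), and the difference of 0.90 (SE 0.10, 95% interval 0.67 to 1.14) was a 1.87-fold rise with a limma adjusted p of 0.014. Its signals before normalization were 84.7, 73.7 and 72.8 against 87.5, 86.4 and 81.8, so this probe was not brighter on the arrays labelled GSK-J4 until the dimmer arrays were scaled. With normexp background correction the difference was 0.36 (limma adjusted p = 0.029), which is under the 1.5-fold threshold. The call was lost when any array labelled vehicle was left out, with limma adjusted p of 0.059, 0.066 and 0.068, while the difference kept a size of 0.86 to 0.94.

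The other Gad1 probes were dim. The probe of the cDNA record AK047521 read 5.14, 5.12 and 5.81 against 5.68, 5.37 and 5.48, a difference of −0.16 (SE 0.21, 95% interval −0.68 to 0.37, limma adjusted p = 0.62), and its groups overlapped. The probe of ENSMUST00000155979, at chr2:70414796-70414855, was detected on 0 of 6 arrays and was not tested. It read 1.86, 1.87 and 3.38 against 1.92, 1.88 and 1.88. Of the 3 tested Gad1 probes, the dim probe of the predicted transcript alone passed the test. The bright probe of the mRNA record was not called, and its sign depended on the scaling.

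For Gad2, the probe of the curated mRNA read 12.31, 12.31 and 12.44 on the arrays labelled GSK-J4 and 12.34, 12.40 and 12.49 on those labelled vehicle. The groups overlapped, with means of 12.36 ± 0.08 and 12.41 ± 0.07 (SD, n = 3). The difference was −0.05 (SE 0.08, 95% interval −0.25 to 0.14), and it did not pass the test (limma adjusted p = 0.65). Scaling to the 75th percentile turned its sign, to 0.12.

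The Gad2 probe of the cDNA record AK136834 read 6.09, 6.18 and 6.53 on the arrays labelled GSK-J4 and 7.0, 6.90 and 7.05 on those labelled vehicle. Every GSK-J4 value was below every vehicle value, with means of 6.27 ± 0.23 and 6.98 ± 0.08 (SD, n = 3). The difference was −0.71 (SE 0.13, 95% interval −1.04 to −0.39), a 1.64-fold fall with a limma adjusted p of 0.027. Before normalization its signals were 48.4, 52.9 and 59.8 against 179.7, 186.2 and 182.3. On the dimmer arrays labelled GSK-J4, 6 of the 10 tested probes lay wholly below vehicle before normalization and 0 lay wholly above, so this order is no separate evidence. With normexp background correction the difference was −0.42 (limma adjusted p = 0.026), which is under the 1.5-fold threshold. Leaving out any array other than GSK-J4 replicate 3 lost the call, with limma adjusted p up to 0.092 and a difference of −0.63 to −0.76. The remaining Gad2 probe, of AK141473 at chr2:22480520-22480579, was detected on 2 of 3 arrays of each group and was not tested. It read 4.56, 4.87 and 4.67 against 3.69, 4.19 and 4.49. Its signals before normalization were 16.9, 21.4 and 16.4 against 18, 28 and 30.5.

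**Figure D2:**
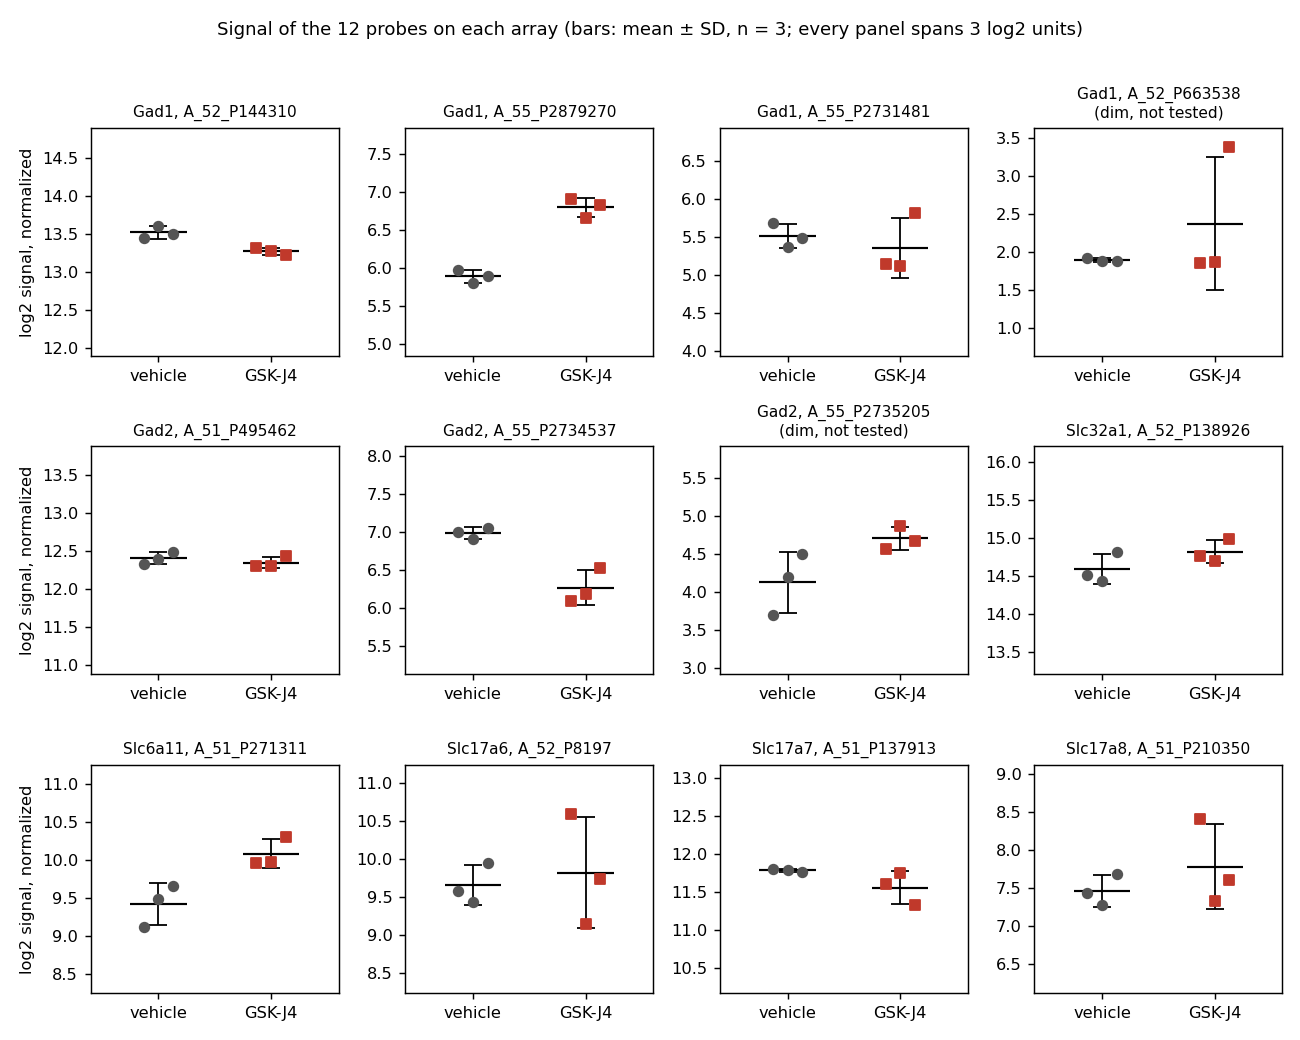
Normalized log2 signal (vertical axis, every panel spanning 3 units) of the 12 probes on each array, with grey circles for vehicle, red squares for GSK-J4 and bars for the mean ± SD (n = 3). The groups are apart for A_55_P2879270 (Gad1, GSK-J4 higher) and A_55_P2734537 (Gad2, GSK-J4 lower), while the bright probes of Gad2 and Slc32a1 overlap.

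The probes of 1 gene name thus measure different places. Along mm9, in the direction of both genes, A_55_P2879270 lies 39826 bases before the probe of the Gad1 mRNA record, ENSMUST00000155979 has its probe 24903 bases before it and AK047521 has its probe 16597 bases before it. For Gad2, the probe of AK136834 lies 10991 bases and that of AK141473 lies 68575 bases before the probe of the mRNA record. For both genes the probe farthest before the mRNA record's probe had a positive difference, although the one for Gad2 was not tested. Both were dim, and before normalization neither lay wholly above vehicle on the arrays labelled GSK-J4. The tested probes of Gad1 and Gad2 contain 35% to 40% G and C, and among all kept probes of at most 35% GC, 1.74% were called higher and 15.8% were called lower. At 36% to 44% GC, the range of A_55_P2734537 with 36.7%, these shares were 4.98% and 9.21%. At 45% GC or more these shares were 14.3% and 4.01%, so base composition moved with direction over the whole array. The difference of A_55_P2879270 was 1.09 and that of A_55_P2734537 was −0.59 after the GC correction, both still called (limma adjusted p = 0.017 and 0.049).

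**Figure D3:**
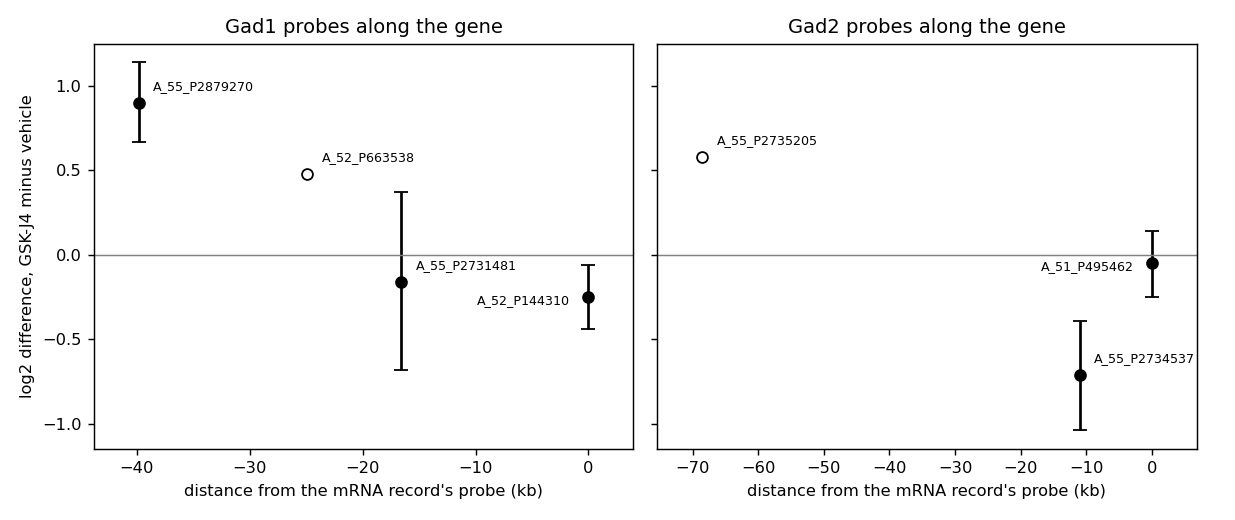
Log2 difference, GSK-J4 minus vehicle (vertical axis), of each Gad1 probe (left) and Gad2 probe (right) against its distance in kb from the probe of the curated mRNA record, with 95% intervals for tested probes and open circles for untested ones. The Gad1 probe 39826 bases away stands at 0.90 and the Gad2 probe 10991 bases away at −0.71, with the mRNA probes at −0.25 for Gad1 and −0.05 for Gad2.

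Slc32a1, whose protein fills vesicles in every GABA or glycine neuron, was measured by 1 bright probe, of NM_009508 at chr2:158441324-158441383. It read 14.77, 14.70 and 14.99 on the arrays labelled GSK-J4 and 14.52, 14.44 and 14.82 on those labelled vehicle. The groups overlapped, with means of 14.82 ± 0.15 and 14.59 ± 0.20 (SD, n = 3) and a difference of 0.23 (SE 0.14, 95% interval −0.11 to 0.56, limma adjusted p = 0.28). The size depended on the scaling. It was 0.61 with the 75th percentile (limma adjusted p = 0.025), 0.28 with normexp background correction (limma adjusted p = 0.028) and 0.04 with the GC correction (limma adjusted p = 0.88).

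Slc6a11, the GABA uptake transporter of astrocytes, had the largest difference among the brightest probes of the 7 genes. Its probe read 9.96, 9.97 and 10.30 on the arrays labelled GSK-J4 and 9.12, 9.48 and 9.65 on those labelled vehicle. Every GSK-J4 value was above every vehicle value, with means of 10.08 ± 0.19 and 9.42 ± 0.27 (SD, n = 3). Before normalization its signals were 776.1, 766.2 and 866 against 742.1, 1081.1 and 1038.2, so the groups overlapped until the dimmer arrays were scaled. The difference was 0.66 (SE 0.17, 95% interval 0.24 to 1.08), 1.58-fold, which passed the thresholds of the study's methods and missed the adjusted threshold narrowly, with a limma adjusted p of 0.05036. Over the 12 alternatives that kept all arrays the difference was 0.57 to 0.69, with limma adjusted p or the adjusted p of the methods' t-test from 0.030 to 0.15, and without vehicle replicate 1 it was 0.51 (limma adjusted p = 0.10). Of 12 astrocyte markers, 12 were tested, and 0 were called higher and 0 lower by limma, beside 8.60% and 7.56% of 22117 genes. At an unadjusted p of 0.05 or less 1 was higher and 1 lower, beside 8097 of 22117 genes in either direction. The median difference of the markers was 0.09 and their summed signal was 178000 to 186000 against 166000 to 178000. The ranges of both groups met at 178000. Such a sum is weighted to the brightest gene, here Aldoc, with means of 16.39 and 16.27 in log2. Whether astrocyte content has a part in the difference of Slc6a11 was not tested.

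The vesicular glutamate transporters gave no call. Slc17a6 (NM_080853, chr7:58926067-58926126) read 10.59, 9.14 and 9.74 on the arrays labelled GSK-J4 and 9.58, 9.44 and 9.95 on those labelled vehicle, and the groups overlapped. The means were 9.82 ± 0.73 and 9.66 ± 0.26 (SD, n = 3), and the difference was 0.16 (SE 0.38, 95% interval −0.76 to 1.09, limma adjusted p = 0.78). GSK-J4 replicate 1 was the high array, and without it the difference turned to −0.22. Slc17a8 (NM_182959, minus strand, chr10:89046159-89046218) was likewise high on GSK-J4 replicate 1, at 8.41 against 7.33 and 7.60 on the other arrays labelled GSK-J4 and 7.43, 7.27 and 7.68 on those labelled vehicle. Its means were 7.78 ± 0.56 and 7.46 ± 0.21 (SD, n = 3), and its difference was 0.32 (SE 0.29, 95% interval −0.40 to 1.04, limma adjusted p = 0.46), which became 0.01 without GSK-J4 replicate 1. For both genes the spread within the GSK-J4 group was wider than the difference between the groups.

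Slc17a7 (NM_182993, chr7:52430841-52430900) had the narrowest spread of the tested probes among the arrays labelled vehicle. It read 11.61, 11.75 and 11.33 on the arrays labelled GSK-J4 and 11.81, 11.80 and 11.77 on those labelled vehicle. Every GSK-J4 value lay below every vehicle value, with means of 11.56 ± 0.21 and 11.79 ± 0.02 (SD, n = 3). The difference was −0.23 (SE 0.12, 95% interval −0.53 to 0.06), which did not pass the test (limma adjusted p = 0.22). It was −0.12 to −0.33 when 1 array was left out, and −0.09 with the 75th percentile (limma adjusted p = 0.59).

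The Slc17a7 probe was the only 1 of the array's 56605 probes that carries the word CCTAACC more than 1 time, counted on the strand of the probe. The stretches around both copies, bases 6 to 24 and 41 to 59 of the probe, are shown with the word in capitals.
Slc17a7 A_51_P137913, bases 6 to 24: ggctcgCCTAACCaattct
Slc17a7 A_51_P137913, bases 41 to 59: gtttaaCCTAACCaccaat
The word was looked for with earlier results of these data known, so the shares below are no independent test of it. It is found in 129 probes, 0.228% of the array, and in 0 of the other probes of the 7 genes. Among 87 other kept probes that hold it, 27.6% were higher and 6.90% were lower by the thresholds of the study's methods, beside 4.73% and 7.86% of the 34346 kept probes without it. The Slc17a7 probe itself passed neither threshold in either direction, and whether the word has a part in its signal was not tested.

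**Figure D4:**
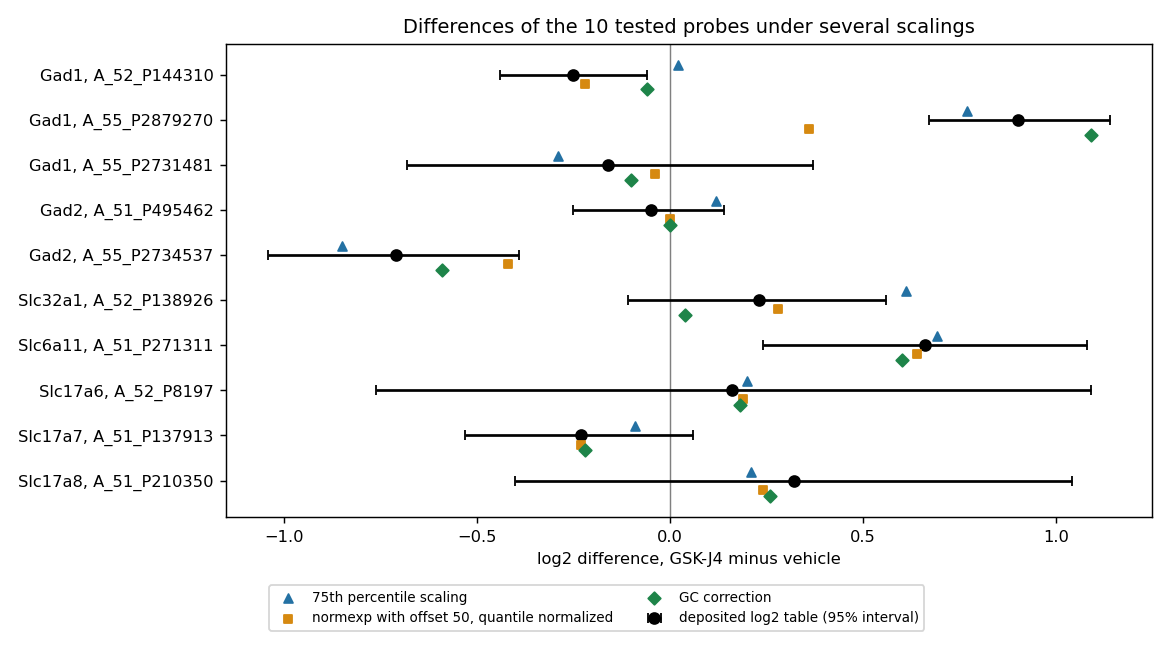
Log2 difference, GSK-J4 minus vehicle (horizontal axis), of the 10 tested probes, with black circles and 95% intervals for the deposited table and coloured symbols for 3 other scalings. The sign of Gad1 A_52_P144310 and Gad2 A_51_P495462 turns with the 75th percentile (blue triangles), while A_55_P2879270, A_55_P2734537 and Slc6a11 stay on their side of 0 under each scaling.

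Replicates labelled GSK-J4 differed most for 2 of the glutamate transporters. Slc17a6 spanned 1.45 log2 units and Slc17a8 spanned 1.08 within that group, a range reached by 4.35% and 7.83% of all kept probes. Among the arrays labelled vehicle the same genes spanned 0.51 and 0.41, reached by 15.1% and 22.0%. The mRNA probes of Gad1 and Gad2 spanned 0.08 and 0.13 among the arrays labelled GSK-J4, which 91.5% and 81.0% of all kept probes reached. The groups had 3 arrays each, and no test of these ranges was made.

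Genes that handle GABA outside the 7 were read from the brightest kept probe of each gene. Of 6 such genes 6 were tested, and 0 were called higher and 0 lower by limma, beside 8.60% and 7.56% of 22117 genes. At an unadjusted p of 0.05 or less 0 were higher and 0 lower, beside 8097 of 22117 genes in either direction. The GABA breakdown enzymes Abat and Aldh5a1 stood at −0.09 (limma adjusted p = 0.42) and −0.38 (limma adjusted p = 0.21), and neither passed. Maob, which takes part in making GABA from putrescine in astrocytes, stood at 0.22 (limma adjusted p = 0.15), and the transporters Slc6a12 and Slc6a13 of the meninges and vessels at 0.52 and 0.60 with wide intervals (limma adjusted p = 0.54 and 0.29). The median of the list was 0.09, and it was 0.25, 0.18 and 0.20 with the 75th percentile, normexp and the GC correction, with 3 positive and 3 negative differences in the deposited table.

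Of 14 genes of glutamate handling, 14 were tested, 1 was called higher and 0 were called lower by limma, beside 8.60% and 7.56% of all genes, with a median difference of −0.02 beside 0.04 over all genes. The higher gene was Slc1a6 (EAAT4), a neuronal glutamate uptake transporter, at 11.73, 11.59 and 11.62 against 10.89, 11.25 and 11.28, a difference of 0.51 (SE 0.12, limma adjusted p = 0.046). The glutamine and glutamate enzymes Glul and Glud1 stood at −0.15 and −0.05, and the astrocytic uptake transporters Slc1a2 and Slc1a3 at 0.18 and 0.17, none of which passed on the brightest probe. The median of the glutamate list was 0.28, with 4 genes called higher, when arrays were scaled to the 75th percentile, 0.04 with normexp and −0.01 after the GC correction. The direction of the list thus depended on the scaling. Slc1a6 was no longer called after that correction (0.45, limma adjusted p = 0.077). Read over all 39 kept probes of the 20 genes of both lists, 2 were called higher and 1 lower, beside 8.39% and 8.42% of all kept probes. Beside that of Slc1a6 these were a probe of Abat (0.84, limma adjusted p = 0.015) and a probe of Slc1a3 (−0.76, limma adjusted p = 0.014), neither the brightest of its gene and each opposite in sign to the brightest probe.

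**Figure D5:**
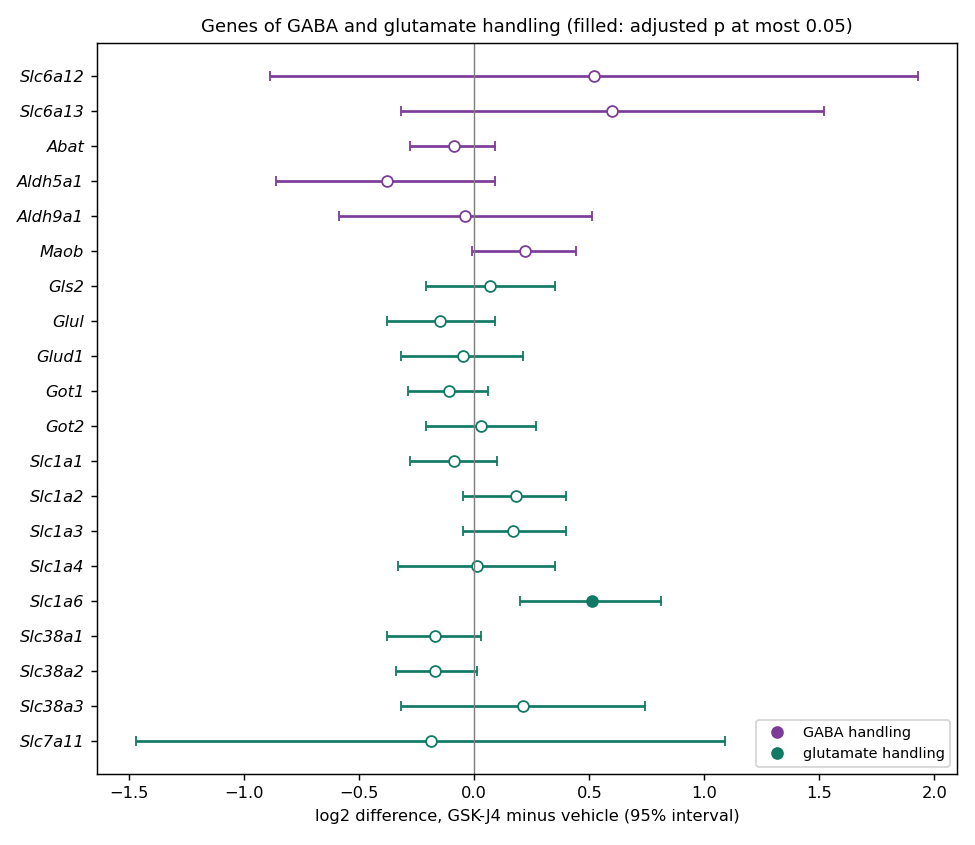
Log2 difference, GSK-J4 minus vehicle, with its 95% interval (horizontal axis) for the brightest probe of 6 GABA handling genes (purple) and 14 glutamate handling genes (green). The filled symbol, for an adjusted p of at most 0.05, is Slc1a6 at 0.51, while the others lie on either side of 0.

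Transcription factors of the 2 neuron classes were read in the same way, and their calls stand beside 8.60% of all genes called higher and 7.56% called lower. Of 18 genes listed here as factors of GABA neurons, 15 were tested, 1 was higher and 0 were lower. The higher one was Tcf7l1, a repressor of Wnt target genes, by 0.36 (SE 0.09, limma adjusted p = 0.042). With the 75th percentile Tcf7l1 was not called (limma adjusted p = 0.096). At an unadjusted p of 0.05 or less 4 of the 15 were higher and 0 lower, beside 8097 of 22117 genes in either direction. The median difference of the 15 was 0.20, with 13 positive and 2 negative. It was 0.15, 0.08 and 0.32 under the 75th percentile, normexp and the GC correction. Of 16 factors of glutamate neurons, 9 were tested, 1 was higher and 2 were lower. The higher one was Emx1, a factor of the developing cortex, by 0.53 (SE 0.12, limma adjusted p = 0.037). The lower ones were Neurod6 at −0.47 (SE 0.10, limma adjusted p = 0.034) and Neurod1 at −0.67 (SE 0.17, limma adjusted p = 0.049), both factors of excitatory neurons of the cortex and hippocampus. The median of these 9 was −0.06, and 0.12 with the 75th percentile. Under the GC correction Emx1, Neurod6 and Neurod1 were no longer called (limma adjusted p = 0.14, 0.12 and 0.11). Neurod6 and Neurod1 were also not called with the 75th percentile (limma adjusted p = 0.073 and 0.053), nor Neurod1 with normexp (limma adjusted p = 0.057). Pan-neuronal markers, of which 12 of 12 were tested, had 0 called higher and 1 lower and a median of 0.08, with a summed signal of 360000 to 399000 on the arrays labelled GSK-J4 and 367000 to 372000 on those labelled vehicle.

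The genes whose profile over the 6 arrays lay nearest to each member were taken by the root mean square difference of log2 values, each centred on its mean, among 30939 other probes. For Slc17a8 the nearest gene was Grm8, at 0.0446, a metabotropic glutamate receptor, and the same probe of Grm8 was nearest to Slc17a6, at 0.108. All of these were high on GSK-J4 replicate 1. For Slc17a6 the next gene was Tshz2, at 0.123, and for Slc17a8 it was AK033971, at 0.0987. Within 0.1 of Slc17a6 and Slc17a8 lay 0 and 2 probes, and the SD of these members over the 6 arrays was 0.498 and 0.417. Such counts tended to be larger for members that varied less, as for Gad2 with an SD of 0.0729 and 3807 probes. They therefore do not show how particular a profile is.

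The nearest genes of the other members are given by name and distance only. Gad1 had Slc11a2 (0.0132) and Atl1 (0.0179) nearest, with 1839 probes within 0.1. Gad2 had Tial1 (0.0134) and D6Wsu163e (0.0176), with 3807 within 0.1. Slc32a1 had 4930553P18Rik (0.0285) and Rad21 (0.0312) with 385, Slc17a7 had Tmeff2 (0.0323) and ENSMUST00000121222 (0.0346) with 455, and Slc6a11 had Gngt2 (0.0530) and Gm10461 (0.0543) with 43.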

How the data were processed

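RNA of 6 mice, 3 in each group, was hybridized to Agilent SurePrint G3 1-colour arrays. The authors extracted the background-corrected intensity of each spot with Feature Extraction (10.7.1.1 per the labels) and deposited it with flags. Their deposited log2 table, quantile normalized per the study's methods, supplied the values here, and its sorted columns differed by at most 0.00424. A probe was kept when flagged well above background on every array of 1 group or both (34443 of 56605; per array 57.7% to 63.6% were). Groups were compared with limma 3.58.1 in R 4.3.3, two-sided, with no covariate and Benjamini-Hochberg adjustment over the kept probes. The precision is limited by the number of arrays. Adjusted p-values named limma's come from this fit or its alternatives. Alternatives were other scalings, background correction (normexp, offset 50), filters, variance models, the methods' t-test, a replicate block, a GC correction and leaving out each array. For lists, the kept probe with the highest mean stood for a gene. All probes of the 7 genes, genes of the handling lists, called genes of other lists and the 2 nearest genes by profile could be named; marker genes, and handling probes other than the brightest, were named beyond that after their values were seen. Members and lists were chosen with earlier results of these data known. The fit was tested on simulated data. Some listed genes are not reported here. Other experiments of the study were not analysed here.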

Additional observations from a re-analysis of the deposited data

How the results depend on the processing

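Of the 10 tested probes 2 were called, and 4 had an unadjusted p of at most 0.05, beside 12577 of all 34443 kept probes. The count was 4 with scaling to the 75th percentile, 4 with normexp background correction and 4 with an intensity trend in the variance. It was 1 with the methods' t-test of equal variances, and by limma 0 with 1 probe per gene (2 at an unadjusted p of at most 0.05). It was 0 with the methods' t-test without equal variances (4 unadjusted) and 0 with the replicate block (4 unadjusted). Leaving out 1 array gave 0 to 2, with 0 without any 1 array labelled vehicle, 1 without GSK-J4 replicate 1 or 2, and 2 without GSK-J4 replicate 3. Over all kept probes 5788 were called, against 8674, 6276 and 6638 with the 75th percentile, normexp and the intensity trend, 3765 with no filter, 3711 with 1 probe per gene, 93 and 3315 with the t-test without and with equal variances, 3677 with the GC correction and 0 with the replicate block (11070 unadjusted). Leaving out 1 array gave 5 to 4165 calls, with 10, 13 and 5 without vehicle replicate 1, 2 and 3, and 2402 without GSK-J4 replicate 1. Of the 52 tested genes of the pathway lists 5 were called, beside 8.60% of all genes called higher and 7.56% called lower. At an unadjusted p of at most 0.05 there were 9, beside 8097 of 22117 genes. By limma the count was 0 with no filter (9 unadjusted), 3 with array weights, 1 with the GC correction and 0 with the replicate block (7 unadjusted). It was 0 to 4 with 1 array left out (2 without GSK-J4 replicate 1, 0 without GSK-J4 replicate 3 or any array labelled vehicle). The t-test without and with equal variances gave 0 and 0 (5 and 6 unadjusted). Their split was 3 higher and 2 lower, and 5 higher and 0 lower with the 75th percentile, which over all kept probes made 58.1% of the calls higher against 49.9%.

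Reversed signs were those of Gad1 A_52_P144310 (0.02) and Gad2 A_51_P495462 (0.12) under the 75th percentile and of Slc17a6 without GSK-J4 replicate 1 (−0.22, range −0.22 to 0.50). The cause was not tested. Over all kept probes, deviations of arrays with the same replicate number correlated at 0.007, 0.026 and 0.081. Why calls were lost under the replicate block was not tested. Of the other settings for single probes, 156 kept direction and side of the threshold, 13 lost a call and 7 gained one.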

Other observations

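Other vesicular transporters were also read from the brightest kept probe. Of 9 such genes 8 were tested and 0 were called higher or lower by limma (1 was higher and 0 lower at an unadjusted p of at most 0.05). Over all 22117 genes 8.60% were called higher and 7.56% lower, and 8097 had an unadjusted p of at most 0.05 in either direction. The median difference of the list was −0.04. Slc17a9, Slc18a2 and Sv2a are named after their values were seen. The largest difference was that of Slc17a9 (VNUT), which loads ATP into vesicles, at 4.95, 5.70 and 6.13 against 4.20, 4.62 and 4.77 (1.06, SE 0.32, limma adjusted p = 0.073). Slc18a2, the vesicular monoamine transporter, differed by −0.06 (SE 0.11, limma adjusted p = 0.70). The vesicle protein Sv2a was low on GSK-J4 replicate 3 alone, at 10.91 against 12.27 to 12.45 on the other arrays. The cause was not tested.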
